A study of Mus musculus with 2 samples.

Results

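The vesicular glutamate transporters are a family of 3 genes, Slc17a6 (VGLUT2), Slc17a7 (VGLUT1) and Slc17a8 (VGLUT3). They were found by matching Ensembl identifiers to gene symbols, and all 3 were present among the 32285 genes counted. They were followed across nuclei of the mouse amygdala in 2 single-nucleus RNA sequencing libraries, 1 from wild-type (WT) and 1 from Sema6d-/- (KO) animals. Both were C57BL6/J, and the animals were 6 to 8 weeks old. Of how many animals went into a library, of their sex and of the deleted part of Sema6d the sources used here say nothing. With 1 library on each side there is no replicate error, and no difference between the libraries was tested. The intervals given are exact 95% intervals, Poisson for levels and Clopper-Pearson for shares, and they cover counting error only.

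Neurons release glutamate from vesicles, and a vesicular glutamate transporter is the protein that fills those vesicles, using the proton gradient made by the vacuolar ATPase. The transporters are therefore used as markers of neurons that can release glutamate. VGLUT1 is known as the main form of cortex, hippocampus and basolateral amygdala, and VGLUT2 as that of thalamus, hypothalamus and the medial amygdala. VGLUT3 is known from scattered neurons whose main transmitter is another one, among them cholinergic neurons of the striatum and some interneurons that carry cholecystokinin.

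The targeted gene did not separate the libraries in the way the labels give. Sema6d, which encodes a transmembrane semaphorin, stood at 632 CPM (UMIs per 1000000 UMIs of the same nuclei, 627 to 638) over all nuclei labelled WT and 686 (679.6 to 693) over all nuclei labelled KO. UMIs were read at the 5′ side of each transcript, and whether the deletion would lower the count there was not tested. The libraries are therefore called WT-labelled and KO-labelled, and every direction between them is a direction between these labels. The WT-labelled matrix held 11060 barcodes with 85124128 UMIs and the KO-labelled matrix 8666 barcodes with 60402979 UMIs. After filters and removal of called doublets 10369 and 7911 nuclei were kept, with a median of 7196 and 6418 UMIs. The matrices shared 128 barcode sequences, of which 112 were kept.

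Clustering without the 3 transporters gave 30 clusters, which were named from marker lists that hold none of them. Neurons made up 8210 WT-labelled and 5037 KO-labelled nuclei. Of these, 16.7% and 18.1% lay in excitatory-like clusters, which carry Neurod2 and Tbr1. Inhibitory-like clusters held 64.6% and 58.3%, and a cholinergic-like cluster with Chat and Slc5a7 held 1.13% and 0.735%. A cluster led by Baiap3 and Rmst, with 17.6% and 22.9% of the neurons, scored alike for excitatory and inhibitory markers and is called the mixed cluster. The score cuts behind these names were set after the clusters had been seen. Unnamed clusters, with 269 and 440 nuclei, held 27 and 98 UMIs of Slc17a6 and 7 and 2 of Slc17a8, with Slc17a7 at 25.2 and 66.5 CPM, and are not counted among the neurons.

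In the GENCODE annotation of GRCm38 (mm10), Slc17a7 (ENSMUSG00000070570) lies at chr7:45163949-45176142 on the plus strand and spans 12.2 kb. Slc17a6 (ENSMUSG00000030500) lies on the same strand at chr7:51622006-51671119 and spans 49.1 kb. The 2 genes are 6.45 Mb apart. Slc17a8 (ENSMUSG00000019935) lies on the minus strand at chr10:89574020-89621253 and spans 47.2 kb. The 250 bases upstream of the RefSeq start sites (build GRCm38.p6) are shown because the transporters were found in different neurons in these libraries. They are printed 5′ to 3′ on the strand of the gene, and the capitals mark E-boxes (CANNTG), the motif bound by basic helix-loop-helix factors such as Neurod2.
Slc17a7, chr7:45163671-45163920, plus strand: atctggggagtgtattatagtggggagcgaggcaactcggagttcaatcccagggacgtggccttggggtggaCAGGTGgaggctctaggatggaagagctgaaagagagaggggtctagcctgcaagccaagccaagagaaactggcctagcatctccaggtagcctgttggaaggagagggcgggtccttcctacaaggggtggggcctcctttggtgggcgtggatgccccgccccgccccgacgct
Slc17a6, chr7:51621580-51621829, plus strand: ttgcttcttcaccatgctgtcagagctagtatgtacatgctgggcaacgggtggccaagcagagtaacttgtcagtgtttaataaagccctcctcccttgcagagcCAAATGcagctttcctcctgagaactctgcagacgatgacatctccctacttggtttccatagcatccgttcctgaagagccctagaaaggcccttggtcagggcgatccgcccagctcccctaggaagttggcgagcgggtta
Slc17a8, chr10:89621250-89621499, minus strand: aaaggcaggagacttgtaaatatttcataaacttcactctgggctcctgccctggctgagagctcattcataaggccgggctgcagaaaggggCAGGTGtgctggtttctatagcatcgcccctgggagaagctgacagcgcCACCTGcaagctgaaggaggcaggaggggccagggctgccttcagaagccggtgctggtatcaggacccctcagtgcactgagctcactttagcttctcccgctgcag

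The Slc17a7 window had the highest GC content of these 3, 61.2% with 9 CpG dinucleotides, against 53.2% with 7 for Slc17a6 and 57.2% with 5 for Slc17a8. It held 3 matches to the GC box (GGGCGG on either strand), and the Slc17a6 window held 1 and the Slc17a8 window 0. Of 32841 promoter windows of this length in the RefSeq table, 32.7% held a GC box. E-boxes were found once in the windows of Slc17a7 and Slc17a6 and at 2 places in that of Slc17a8, and 66.2% of all windows held at least 1. None of the 3 held the letters TATAAA on either strand, which 12.4% of all windows did. RefSeq gives a further start to Slc17a6 (window chr7:51624387-51624636, 41.2% GC) and to Slc17a8 (chr10:89599816-89600065, 44.8% GC), and neither of those windows held a GC box. A match is a description of the letters and does not show that a factor binds there.

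Each transporter had its own place among the neurons. Excitatory-like clusters held 83.2% (82.2 to 84.2) of the neuronal Slc17a7 UMIs in the WT-labelled library and 84.7% (83.7 to 85.8) in the KO-labelled one. The mixed cluster held 62.5% (59.9 to 65.0) and 67.0% (64.6 to 69.4) of the Slc17a6 UMIs. The cholinergic-like cluster held 77.1% (71.1 to 82.4) and 72.3% (62.2 to 81.1) of the Slc17a8 UMIs. Each transporter thus had the same leading class in both libraries.

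**Figure D1:**
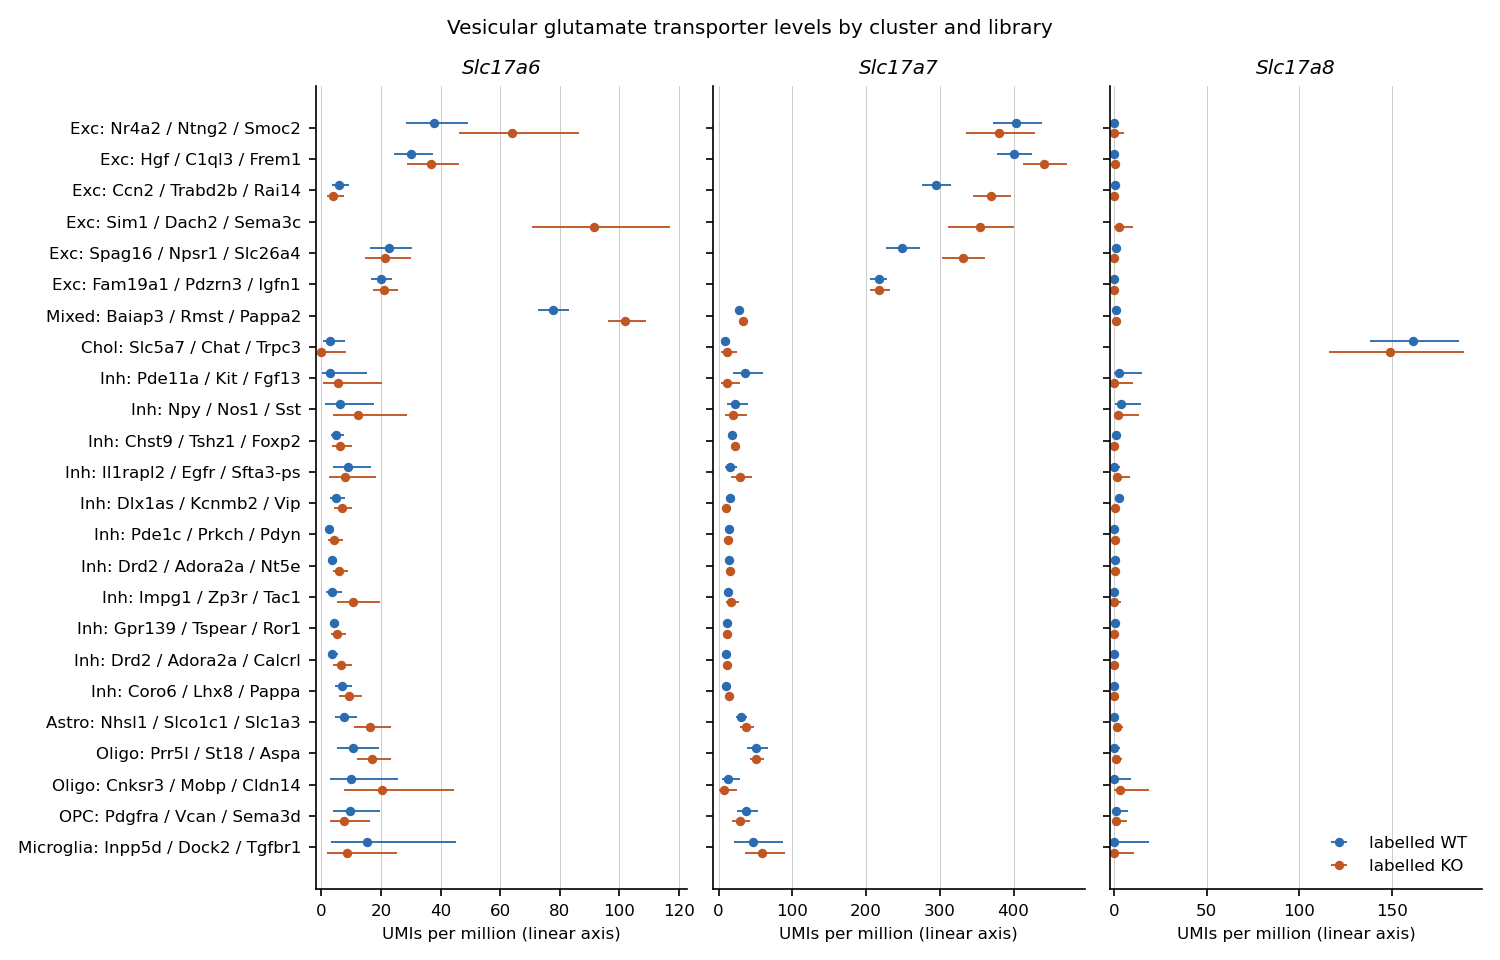
Level of each transporter (CPM, linear axes that differ between panels) in every neuronal and glial cluster with at least 20 nuclei, named by class and 3 of its leading genes. Points are libraries and bars are exact 95% Poisson intervals. Slc17a7 is high in all 6 excitatory-like clusters, Slc17a6 in the mixed cluster and part of the excitatory-like ones, and Slc17a8 in the cholinergic-like cluster.

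Slc17a7, the form of cortical and basolateral projection neurons, reached 287 CPM (279 to 296) in WT-labelled and 315 (305 to 325) in KO-labelled excitatory-like nuclei. At least 1 UMI was present in 89.1% and 93.4% of these nuclei, at a median of 10441 and 11276 UMIs per nucleus. After each nucleus was thinned to 1000 UMIs the shares were 26.7% and 31.0%. Inhibitory-like nuclei stood at 13.4 (12.3 to 14.5) and 14.2 (12.7 to 15.7) CPM. That is below the level in oligodendrocytes, 40.0 (30.3 to 51.9) and 45.7 (37.5 to 55.2), cells that should lack the transporter but were shallower, at a median of 1974 and 1858 UMIs against 7758 and 8137. As counted, 9.66% and 11.2% of inhibitory-like nuclei and 9.34% and 8.40% of oligodendrocytes had a UMI, and at 1000 UMIs per nucleus 1.59% and 1.98% against 4.90% and 4.85%. A UMI of Slc17a7 in an inhibitory-like nucleus is therefore not read as expression, and where it came from was not tested. The mixed cluster, at 27.7 (24.7 to 31.0) and 32.8 (29.2 to 36.6) CPM, did not exceed the oligodendrocyte CPM either. As counted, however, 16.0% (14.2 to 18.0) and 17.5% (15.4 to 19.9) of its nuclei had a UMI, above the oligodendrocyte shares. These nuclei were deeper, at a median of 7073 and 7798 UMIs, and at 1000 UMIs per nucleus the shares were 2.62% and 3.30%.

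Slc17a6, the form of thalamic, hypothalamic and medial amygdala neurons, was highest in the mixed cluster, with 77.7 CPM (72.6 to 83.0) in the WT-labelled and 102 (96.2 to 109) in the KO-labelled library. It was present in 29.1% and 35.9% of those nuclei, and in 6.91% and 9.22% after thinning. The excitatory-like clusters stood at 21.7 (19.4 to 24.1) and 27.1 (24.2 to 30.2). Oligodendrocytes gave a background of 10.5 (5.90 to 17.4) and 17.4 (12.5 to 23.6), from 1.05% and 2.20% of nuclei after thinning. Excitatory-like nuclei were thus above this background by their level, while their thinned shares, 2.05% and 2.41%, were close to it. As counted, 16.7% and 21.9% of them had a UMI, against 2.60% and 3.12% of oligodendrocytes. At least 2 UMIs were found in 5.34% and 7.23% of them, against 0% and 0.260%. The oligodendrocytes were shallower, at a median of 1974 and 1858 UMIs against 10441 and 11276. Inhibitory-like nuclei, at 4.32 (3.72 to 4.98) and 6.52 (5.56 to 7.60) CPM, were below the oligodendrocyte level.

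Slc17a8, the transporter of neurons with another main transmitter, was concentrated in a single cluster. Cholinergic-like nuclei, 93 WT-labelled and 37 KO-labelled, held 161 (138 to 186) and 149 (116 to 189) CPM. At least 1 UMI was found in 58.1% (54 nuclei) and 56.8% (21 nuclei), and in 17.2% and 10.8% after thinning. The nuclei with a UMI had a median of 2.50 and 3 of them and a maximum of 12 and 6. No other neuronal class exceeded 1.06 CPM in the WT-labelled and 1.24 in the KO-labelled library. Chat, the enzyme that makes acetylcholine, was detected in 96.8% and 97.3% of the same nuclei, so Slc17a8 was seen in fewer of them at this depth. Slc17a6 had 3 UMIs in the WT-labelled cholinergic-like nuclei and 0 in the 37 KO-labelled ones, which allows a share of nuclei with a UMI of up to 8.11% by a limit of 3 counts and 9.49% by the exact interval. Slc17a8 was left out of the genes used for clustering, so its level did not help to draw this cluster.

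Within the excitatory-like clusters the 2 main transporters were ordered differently. For Slc17a7 the clusters led by Hgf and C1ql3 (401 and 442 CPM) and by Nr4a2 and Ntng2 (404 and 379.8) were the highest. In the WT-labelled library their intervals overlapped and lay above the cluster of Ccn2 and Trabd2b, at 295 (276 to 315). In the KO-labelled library that cluster, at 369.6 (345 to 396), overlapped with its neighbours, and so did the cluster of Sim1 and Dach2, at 354 (311 to 400.5). The cluster of Fam19a1 and Pdzrn3 was lowest in both, at 217 (205 to 228) and 218 (205 to 232), and in the KO-labelled library it lay apart from the next one. Every excitatory-like cluster was well above all inhibitory-like clusters, of which the highest stood at 35.6 (18.9 to 60.8) and 28.3 (16.8 to 44.7).

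Slc17a6 split these same clusters. It stood at 37.6 (28.3 to 49.1) and 64.0 (46.3 to 86.3) CPM in the Nr4a2 and Ntng2 cluster. In the Sim1 and Dach2 cluster it reached 91.6 (70.7 to 117) in the 75 KO-labelled nuclei, and only 14 WT-labelled nuclei fell there. Sim1 is known from neurons of the hypothalamus and of the nucleus of the lateral olfactory tract. The Ccn2 and Trabd2b cluster, in contrast, had 5.81 (3.44 to 9.18) and 4.03 (1.84 to 7.65) beside its high Slc17a7, and both intervals overlapped with those of inhibitory-like nuclei. Ccn2 is a marker of the deepest cortical layer.

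At a finer clustering (Leiden resolution 2.0) the Hgf and C1ql3 cluster came apart into 2 clusters that differed in Slc17a7 and in Slc17a6. The nuclei led by C1ql3, Rspo2 and Npsr1 (143 WT-labelled, 91 KO-labelled) had the highest Slc17a7 of all clusters at that resolution, 471 (439 to 505) and 510.0 (471 to 551) CPM. Their Slc17a6 was 4.67 (2.02 to 9.21) and 17.4 (10.9 to 26.3). The nuclei led by Hgf, Frem1 and Scn7a (105 and 64) had a Slc17a7 of 291 (259.5 to 324) and 308 (267 to 354), and a Slc17a6 of 72.9 (57.8 to 90.7) and 76.3 (56.6 to 101). In both libraries the intervals of the pair did not overlap for either gene, with more Slc17a7 where there was less Slc17a6. Rspo2, a secreted activator of Wnt signalling, is known as a marker of basolateral amygdala neurons.

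At that resolution the mixed cluster also fell into parts with much and with little Slc17a6, of which the 4 largest are described. The part led by Ebf2 and Rmst (357 and 335 nuclei) had 153 (139 to 169) and 175 (159.8 to 191) CPM, and 12.6% and 11.0% of its nuclei were GAD-positive, meaning at least 2 UMIs of Gad1 and Gad2 together. The part led by Pappa2 and Cdh23 (219 and 168 nuclei) had 205 (185 to 227) and 248 (223 to 276), with 21.9% and 24.4% GAD-positive. It also carried Tcf7l2, a transcription factor of thalamic neurons that glia express as well, at 183 and 213 CPM. The parts led by Ankfn1 and Prlr and by Baiap3 and Ebf1 had 10.3 (7.11 to 14.4) and 14.4 (10.4 to 19.6) in the WT-labelled library and 16.0 (11.1 to 22.4) and 23.3 (18.0 to 29.8) in the KO-labelled one. In these parts 75.9% to 78.3% of the nuclei were GAD-positive. Slc17a7 was 59.3 (50.5 to 69.3) and 58.4 (49.9 to 67.9) in the Ebf2 part and 19.3 (13.4 to 26.8) and 42.4 (32.5 to 54.5) in the Pappa2 part. The mixed cluster was thus a merger at resolution 1.0 of Slc17a6 neurons with few GAD UMIs and GAD neurons with little Slc17a6.

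**Figure D2:**
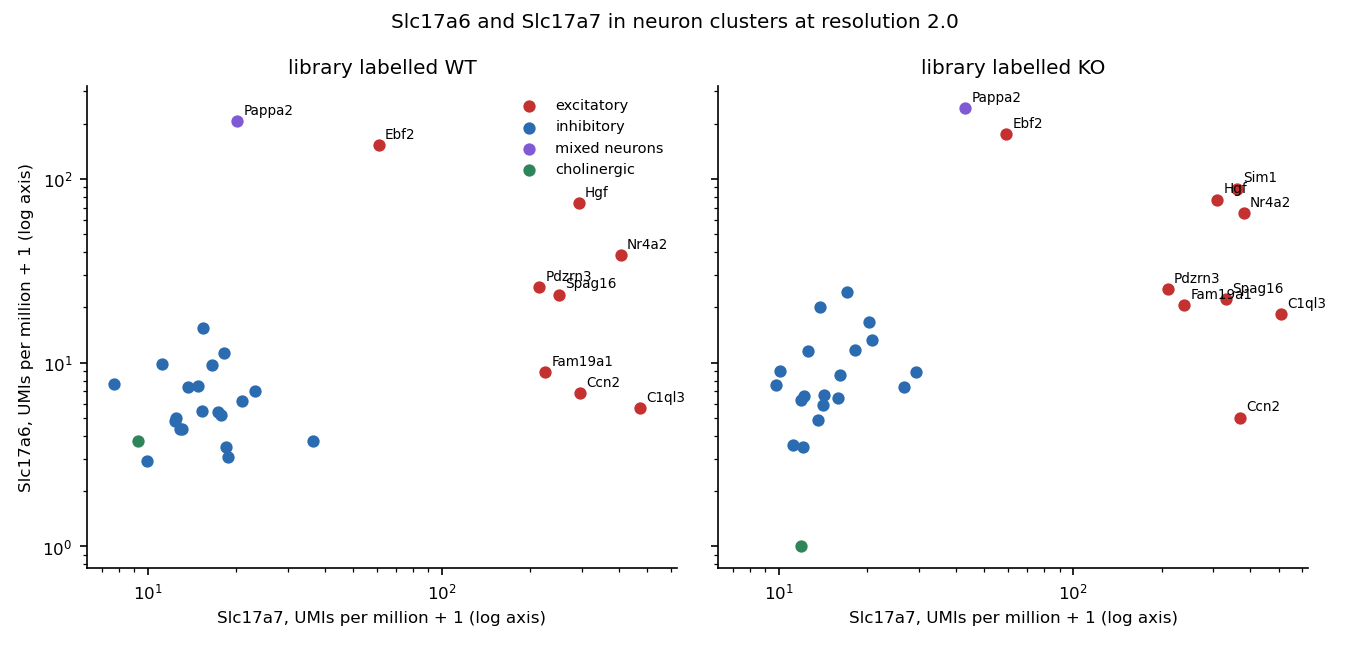
Slc17a6 against Slc17a7 (CPM plus 1, log axes) in each neuronal cluster of the finer clustering with at least 20 nuclei, one panel per library, coloured by the class each finer cluster scores for, by which the Ebf2 cluster is excitatory. The points labelled Pappa2 and Ebf2 lie high on Slc17a6 and low on Slc17a7, Ccn2 lies at the opposite corner in both libraries, and Hgf and C1ql3 lie apart on both axes.

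Nuclei were then divided by their GAD counts, without regard to cluster. Gad1 and Gad2 encode the enzymes that make GABA, so GAD-positive neurons (5216 and 3085 nuclei) are mainly inhibitory and GAD-negative neurons, with 0 UMIs of both, mainly are not (1773 and 1203). A further 1221 and 749 neurons had exactly 1 GAD UMI and were left out. Slc17a7 was present in 53.8% and 57.2% of GAD-negative nuclei and in 12.2% and 14.0% of GAD-positive ones. Slc17a6 was present in 24.1% and 33.8% of GAD-negative and in 4.35% and 6.06% of GAD-positive nuclei. At 1000 UMIs per nucleus the Slc17a7 shares were 15.1% and 18.0% against 2.13% and 2.72%, and those of Slc17a6 were 4.93% and 7.85% against 0.633% and 0.746%. Thinning left out 11 WT-labelled and 8 KO-labelled neurons with fewer UMIs than that.

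As counted, these GAD-positive shares of Slc17a7 lay above those of the shallower oligodendrocytes (9.34% and 8.40%), and after thinning below them (4.90% and 4.85%). They include GAD-positive nuclei of the excitatory-like clusters. GAD-positive nuclei of the inhibitory-like clusters alone gave 9.66% and 11.1% at 8034 and 8528 UMIs, and 1.53% and 1.75% after thinning. The ratio of Slc17a6 to Slc17a7 UMIs, read across classes and not as a ratio of transcripts, was 0.322 (0.272 to 0.381) and 0.461 (0.381 to 0.556) in inhibitory-like nuclei. Oligodendrocytes had 0.263 (0.138 to 0.471) and 0.380 (0.258 to 0.549), which overlaps, while excitatory-like nuclei had 0.0755 and 0.0860 and the mixed cluster 2.80 and 3.13. In inhibitory-like nuclei the CPM of both transporters was thus below that of oligodendrocytes, and the proportion between them overlapped.

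Of the GAD-positive neurons with at least 2 UMIs of Slc17a7, 107 of 170 in the WT-labelled and 71 of 104 in the KO-labelled library lay in excitatory-like clusters. Inhibitory-like clusters held 43 and 20 of them and the mixed cluster 20 and 12. The GAD-positive nuclei of the excitatory-like clusters (130 and 90) had 249.7 (228 to 273) and 201 (180.2 to 223) CPM, against 289 (279 to 299.5) and 341 (328 to 354) in their GAD-negative nuclei. They were also deeper, with a median of 14051 and 16946 UMIs against 10021 and 10936. GAD-positive nuclei were 9.50% and 9.86% of the excitatory-like clusters, and 5.02% and 5.37% of the much shallower oligodendrocytes. Whether some of them were doublets that had escaped the call was not tested. In the mixed cluster the GAD-negative nuclei (440 and 396) had a Slc17a6 of 173 (158 to 188) and 204 (189 to 221) CPM and the GAD-positive ones (771 and 565) 20.7 (17.3 to 24.5) and 25.3 (21.1 to 30.1). The CPM of the latter overlapped with the oligodendrocyte interval in both libraries, in the WT-labelled one only at the edge (5.90 to 17.4). As counted, 8.56% (6.68 to 10.8) and 11.5% (8.99 to 14.4) of them had a UMI of Slc17a6, against 2.60% and 3.12% of oligodendrocytes. At least 2 UMIs were found in 32 and 27 of them, and in 0 and 3 oligodendrocytes. After thinning, the shares with a UMI were 1.56% and 1.95% against 1.05% and 2.20%.

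Slc17a8 went the other way. Of the neurons with at least 2 UMIs of Slc17a8, 27 of 39 in the WT-labelled library (69.2%, 52.4 to 83.0) and 14 of 20 in the KO-labelled one (70.0%, 45.7 to 88.1) were GAD-positive. The same share was 13.6% and 13.0% for Slc17a6 and 15.1% and 12.6% for Slc17a7. Most of these nuclei were cholinergic-like, 35 of 39 and 17 of 20, and the cluster as a whole was GAD-positive in 65.6% (55.0 to 75.1) and 70.3% (53.0 to 84.1) of its nuclei. Its GAD UMIs came mostly from Gad2, at 164 (141 to 190.3) and 169 (133 to 211) CPM. Its Gad1 was 69.8 (55.0 to 87.4) and 37.2 (21.7 to 59.6), against 51.3 (40.2 to 64.5) and 73.7 (63.1 to 85.5) in oligodendrocytes. Slc32a1, the transporter that loads GABA into vesicles, stood at 13.8 (7.71 to 22.7) and 2.19 (0.0554 to 12.2), no higher than the 14.8 and 13.4 of excitatory-like nuclei. Gad2 was therefore the only 1 of these 3 GABA genes above both the excitatory-like and the oligodendrocyte level in the cholinergic-like cluster in both libraries. GAD-positive and GAD-negative cholinergic-like nuclei did not differ in Slc17a8 beyond counting error, with 166 (138 to 198) against 154 (95.3 to 235) in the WT-labelled library and 146 (108 to 192) against 149 (64.4 to 294) in the KO-labelled one.

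**Figure D3:**
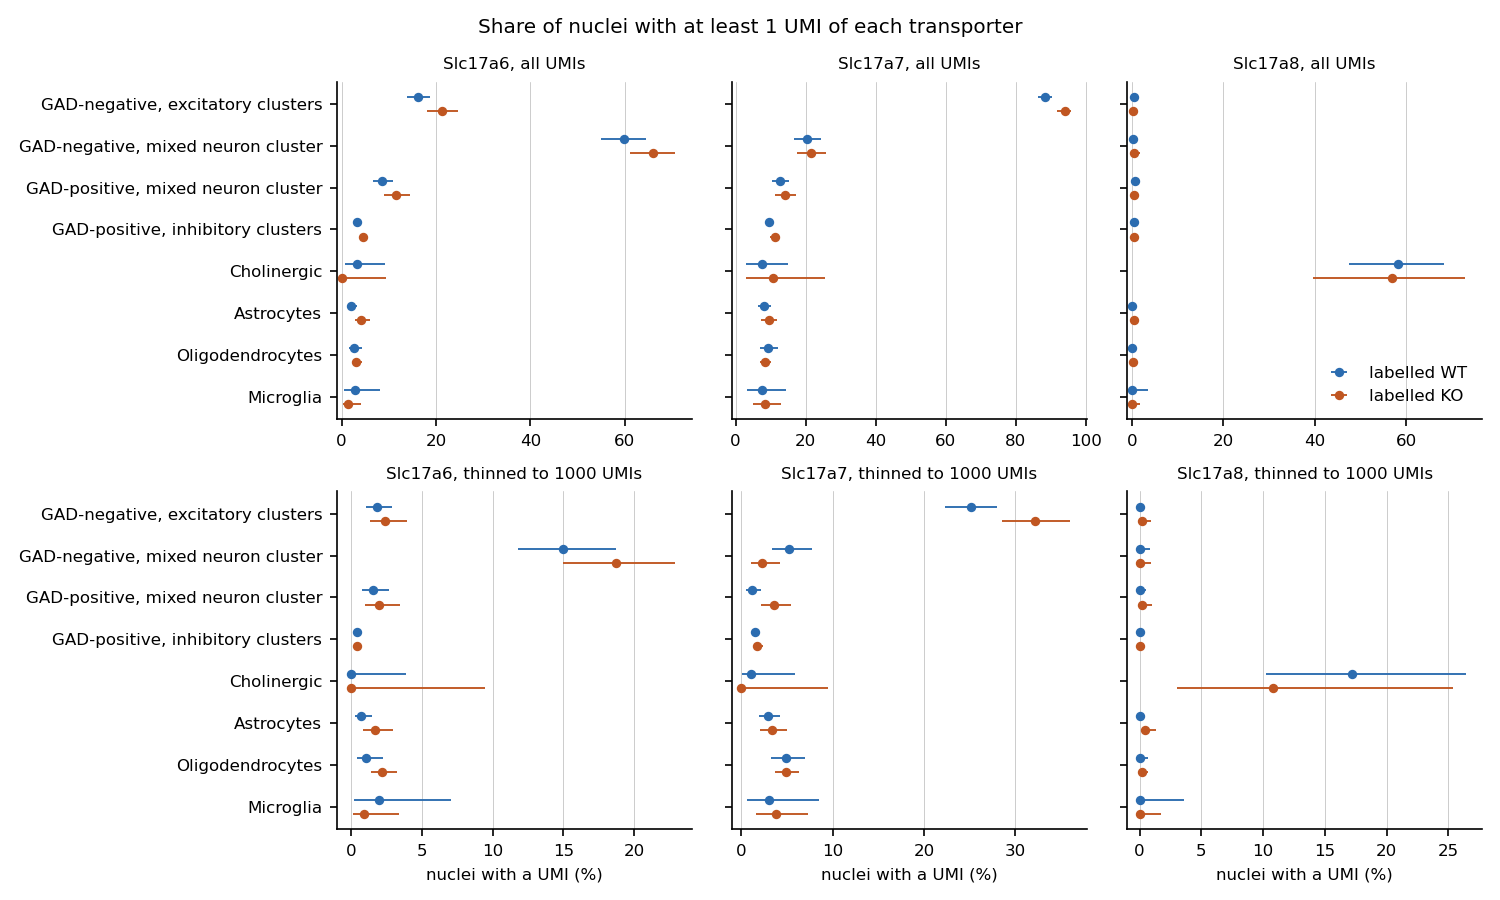
Share of nuclei with at least 1 UMI of each transporter (%, linear axes that differ between panels), as counted (top) and thinned to 1000 UMIs per nucleus (bottom). Points are libraries and bars are exact 95% Clopper-Pearson intervals. After thinning, Slc17a7 stands out in GAD-negative excitatory-like nuclei (25.1% and 32.1%), Slc17a6 in GAD-negative nuclei of the mixed cluster (15% and 18.7%) and Slc17a8 in cholinergic-like nuclei (17.2% and 10.8%), and the GAD-positive inhibitory-like nuclei lie at or below the oligodendrocytes for Slc17a6 and Slc17a7.

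Co-detection was read from GAD-negative neurons first. Slc17a7 alone was found in 42.6% of the WT-labelled and 42.2% of the KO-labelled nuclei, Slc17a6 alone in 13.2% and 19.0%, both in 10.9% and 14.6%, and none of the 3 in 32.4% and 23.6%. The nuclei with none were the shallowest of these, at a median of 5870.5 and 6060.5 UMIs. Slc17a6 was present in 20.3% (17.8 to 23.0) and 26.0% (22.8 to 29.5) of the nuclei with Slc17a7, and in 28.6% (25.5 to 31.8) and 44.3% (39.9 to 48.7) of those without. With both genes counted from 2 UMIs the shares were 5.77% and 8.54% against 15.6% and 24.4%. After thinning they were 3.01% and 1.40% against 5.27% and 9.27%, where the intervals of the WT-labelled pair overlap. In GAD-negative neurons Slc17a6 was thus rarer where Slc17a7 was found, although nuclei with Slc17a7 were deeper.

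Within classes no such gap was seen. In excitatory-like clusters Slc17a6 was present in 16.6% (14.5 to 18.8) and 22.0% (19.3 to 25.0) of nuclei with Slc17a7 and in 17.4% (11.7 to 24.5) of WT-labelled nuclei without, with 12 of 60 (10.8 to 32.3%) in the KO-labelled library. Among GAD-negative nuclei of the mixed cluster the shares were 64.4% (53.7 to 74.3) and 63.5% (52.4 to 73.7) against 58.6% (53.2 to 63.8) and 66.6% (61.0 to 71.8). In both places the intervals overlapped in each library. Nuclei of the excitatory-like clusters with at least 2 UMIs of both genes numbered 46 WT-labelled and 56 KO-labelled. The median doublet score of these nuclei was 0.0485 and 0.0434, against 0.0400 and 0.0332 for their clusters. Among all nuclei called doublets and removed, 4.74% and 8.56% carried both genes.

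**Figure D4:**
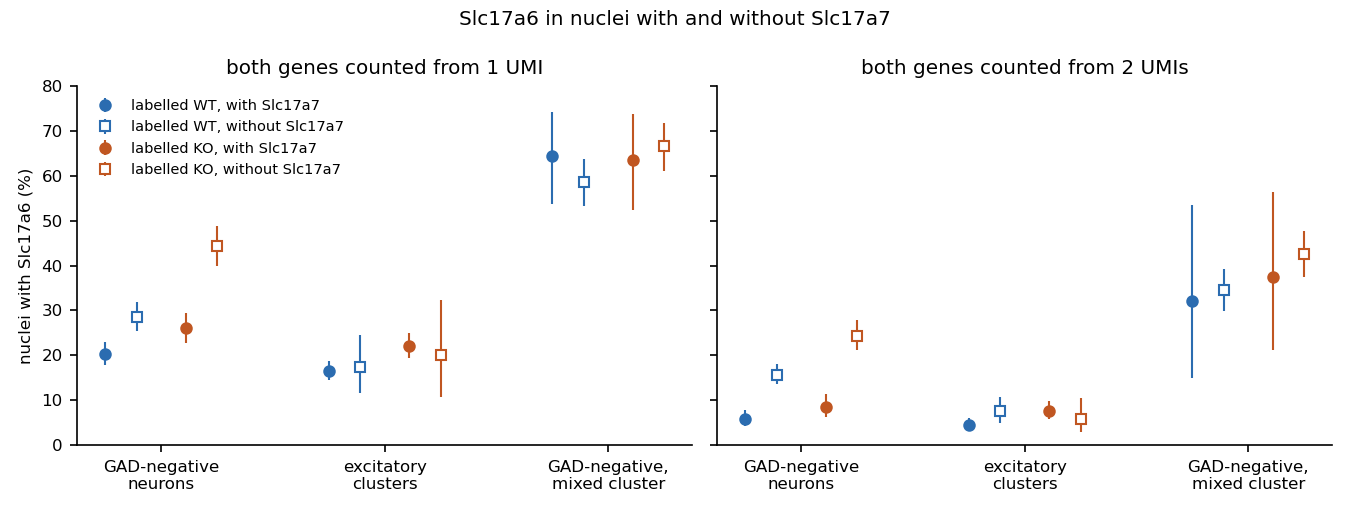
Share of nuclei with Slc17a6 (%) among nuclei with Slc17a7 (filled circles) and without it (open squares), for 3 sets of neurons, with both genes counted from 1 UMI (left) or from 2 UMIs (right). Bars are exact 95% Clopper-Pearson intervals. The gap between filled and open points in GAD-negative neurons (20.3% against 28.6% and 26.0% against 44.3% at 1 UMI) is not seen within the excitatory-like clusters or the GAD-negative part of the mixed cluster.

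Slc17a8 was rarely found with another member. Of GAD-positive neurons 55 WT-labelled and 21 KO-labelled nuclei had Slc17a8 alone, and 6 and 7 had it with Slc17a6 or Slc17a7. Among GAD-negative neurons the counts were 11 and 3 alone and 4 and 4 with another. At 2 UMIs of each gene, GAD-positive nuclei with Slc17a8 included none with Slc17a6 in either library, 0 of 27 and 0 of 14. These numbers are too small to tell co-detection from background.

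Neurons were also divided by single marker genes, counting a nucleus into a gate at 2 UMIs of the gene. Of 30 gate genes 26 had at least 20 nuclei in both libraries. Gates were ranked by the mean level of the 2 libraries, and the order within 1 library can differ. Slc17a6 was highest in neurons with Tcf7l2 (169.6, 137 to 208, and 181, 149 to 218 CPM), with Sim1 (111 and 98.4) and with Calb2 (86.2 and 87.9), which encodes the calcium-binding protein calretinin. It was lowest in neurons with Chat (2.72 and 0), with Vip (9.92, 2.05 to 29.0, in 33 nuclei and 0 to 17.5 in 30) and with Drd2 (7.68 and 9.01), although in the WT-labelled library Th (3.69) was below Vip and Drd2. Slc17a7 was highest with the cortical and amygdalar genes Fezf2 (338 and 351) and Rspo2 (304 and 346). It was lowest with Chat (7.25 and 10.2), Vip (9.92 and 18.9) and Slc5a7 (20.2, 13.1 to 29.8, and 10.2, 3.31 to 23.8), and the last was not among the lowest 3 in the WT-labelled library, where Lhx6 (14.3) and Th (11.1) were lower. In Sim1 neurons both were high, with a Slc17a7 of 266 (216 to 324) and 288 (257 to 322), while Tcf7l2 neurons had a Slc17a7 of only 30.7 (17.9 to 49.1) and 59.3 (41.5 to 82.1).

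Slc17a8 was highest in neurons with Chat, at 149 (127 to 173) and 138 (107 to 175), and with Slc5a7, the choline transporter, at 126 (107 to 148) and 137 (106 to 174). The dopamine receptor gene Drd2 came next, at 8.94 (7.53 to 10.5) and 5.80 (4.26 to 7.71). It was lowest with Tcf7l2 and Fezf2, where no UMI was found in either library, and with Slc30a3, where 1 and 0 were found. The 1504 and 729 GAD-positive neurons with Drd2 had 8.39 (6.92 to 10.1) and 4.93 (3.43 to 6.85). Of these nuclei 34 and 12 were cholinergic-like, and without them the level was 0.533 (0.214 to 1.10) and 0.432 (0.0891 to 1.26). Most of the Slc17a8 in this gate thus lay in a few cholinergic-like nuclei. GAD-positive neurons with Cck, the gate nearest to the known Slc17a8 interneurons, had 9 UMIs among 138 nuclei and 3 among 113, in 3 nuclei of each library, which is 5.87 (2.68 to 11.1) and 2.21 (0.457 to 6.47) CPM. In the finer clustering the highest Slc17a8 with at least 20 nuclei in each library outside the cholinergic-like cluster was in the cluster of Vip, Adarb2 and Frem1 (125 and 84 nuclei), at 7.38 (3.19 to 14.5) and 3.70 (0.763 to 10.8), from 8 UMIs in 2 nuclei and 3 UMIs in 3. With so few nuclei behind them, the Poisson intervals of these sets are too narrow.

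Between the libraries, summed over all neurons, Slc17a6 and Slc17a7 were higher and Slc17a8 was lower in the KO-labelled one. Slc17a6 stood at 19.7 CPM (18.7 to 20.8) in the WT-labelled and 31.3 (29.7 to 33.0) in the KO-labelled library, a log2 ratio of 0.67 (0.56 to 0.77). Slc17a7 stood at 75.4 (73.4 to 77.4) and 94.1 (91.3 to 96.9), a log2 ratio of 0.32 (0.26 to 0.38). Slc17a8 stood at 3.18 (2.78 to 3.62) and 1.99 (1.61 to 2.43), a log2 ratio of -0.68 (-1.04 to -0.32). The intervals of the levels did not overlap for any of the 3. Past 1.5-fold (a log2 ratio of 0.58) were 2 of the 3 members, beside 6.77% of the 15350 genes with at least 100 neuronal UMIs.

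Much of these ratios went with the make-up of the neurons. The KO-labelled library had more of its neurons in the mixed cluster (22.9% against 17.6%) and fewer in the cholinergic-like cluster (0.735% against 1.13%). When each cluster was given equal weight in both libraries, the log2 ratios were 0.38 for Slc17a6, 0.15 for Slc17a7 and -0.25 for Slc17a8, and none was past 1.5-fold. Slc17a8 within the cholinergic-like cluster had a log2 ratio of -0.11 (-0.54 to 0.30), and in neurons outside it -0.41 (-1.15 to 0.29). The lower Slc17a8 sum was thus not seen beyond counting error on either side of that division. Genotype and library cannot be told apart, for the make-up or for the levels.

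Within the classes, too, Slc17a6 was higher in the KO-labelled library. The log2 ratio was 0.40 (0.27 to 0.53) in the mixed cluster, 0.32 (0.09 to 0.54) in excitatory-like and 0.60 (0.28 to 0.91) in inhibitory-like nuclei. Of 18 neuronal clusters with at least 20 nuclei in each library, 14 had more Slc17a6 in the KO-labelled one and 4 less, and the interval lay above 0 in 3 and below 0 in none. These clusters share the same 2 libraries and are not repeats. Over all neurons, 8683 of 15350 genes were higher in the KO-labelled library. The non-neuronal classes, where Slc17a6 is read as background, differed in the same direction, with 9.34 (6.86 to 12.4) and 16.1 (12.9 to 19.7), a log2 ratio of 0.78 (0.26 to 1.32). The part of free RNA in the neuronal ratio was not tested. Between the GAD-negative nuclei of the mixed cluster, where the level is far above that background, the log2 ratio was 0.24 (0.08 to 0.41).

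Slc17a7 had a log2 ratio of 0.13 (0.07 to 0.19) in excitatory-like nuclei. It was 0.32 (0.19 to 0.46) in the Ccn2 and Trabd2b cluster and 0.41 (0.23 to 0.60) in the cluster led by Spag16, but 0.01 (-0.11 to 0.13) in that of Fam19a1 and Pdzrn3 and -0.09 (-0.31 to 0.12) in that of Nr4a2 and Ntng2. Over the 18 clusters, which again are not repeats, 12 had more and 6 less in the KO-labelled library, with 4 intervals above 0 and none below. In the non-neuronal classes the log2 ratio was 0.27 (-0.02 to 0.56). None of these class values was past 1.5-fold.

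**Figure D5:**
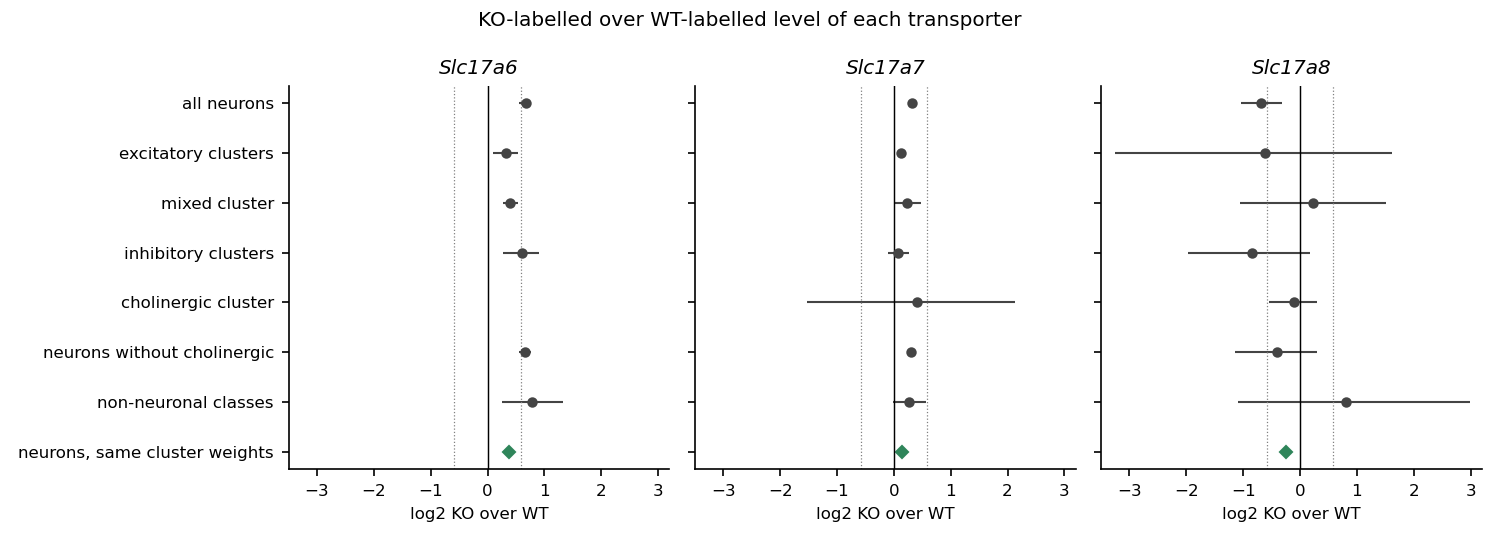
Log2 ratio of the KO-labelled over the WT-labelled level of each transporter. Grey points with bars are ratios with exact 95% conditional binomial intervals, green diamonds are the ratio in neurons with equal cluster weights, and dotted lines mark 1.5-fold. Slc17a6 lies above 0 in all classes drawn, the non-neuronal ones included, and Slc17a8 within the cholinergic-like cluster spans 0. Slc17a6 in the cholinergic-like cluster is not drawn because 1 library had no UMI.

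By GAD count, the GAD-negative neurons gave a Slc17a6 of 49.9 (46.5 to 53.5) and 73.9 (69.0 to 78.9) CPM and a Slc17a7 of 198 (191 to 205) and 233 (224 to 242). The log2 ratios were 0.56 (0.42 to 0.71) and 0.24 (0.16 to 0.31). Neither was past 1.5-fold, where 5.92% of 12075 genes were, and Slc17a8 had under 100 UMIs there. In GAD-positive neurons the log2 ratios were 0.44 (0.21 to 0.68), 0.15 (0.01 to 0.29) and, for Slc17a8, -0.63 (-1.07 to -0.20). Of the 3, Slc17a8 was past 1.5-fold, beside 6.04% of 14155 genes.

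Over the marker gates and their GAD divisions, 64 sets of nuclei were compared between the libraries, and many share nuclei. The libraries' intervals lay apart with more than 1.5-fold between them in 12 sets for Slc17a6, all higher in the KO-labelled library. They came from the gates of Sst, Foxp2, Drd1, Cnr1, Cck and Meis2. The share of all genes that met this rule in these sets is not given here. The counts of sets, for Slc17a6 and for the other transporters, are therefore not read as a result about them. The widest gap among GAD-negative sets was that of Foxp2, with 39.0 (32.8 to 45.9) against 88.0 (76.8 to 100.4), where the mixed cluster gave 17.3% of the WT-labelled and 36.6% of the KO-labelled nuclei. Without the mixed cluster that set had 6.70 (4.09 to 10.3) and 11.3 (6.68 to 17.8), a log2 ratio of 0.75 (-0.25 to 1.74) from 20 and 18 UMIs. Without the mixed cluster all 12 sets were still higher in the KO-labelled library, with log2 ratios of 0.39 to 0.98, and 4 met the same rule. These were the Foxp2 gate over all neurons, at 4.60 and 7.91 (log2 ratio 0.78, 0.39 to 1.17), and its GAD-positive part, at 3.98 (3.13 to 5.00) and 6.49 (5.06 to 8.21). The others were the gate of Cnr1, which encodes the cannabinoid receptor CB1, at 7.04 (6.12 to 8.07) and 12.7 (11.1 to 14.5), and its GAD-negative part, at 16.4 (12.8 to 20.7) and 29.1 (23.8 to 35.1). Of the nuclei of the whole Cnr1 gate 10.9% and 18.0% were excitatory-like. Both Foxp2 sets lay below the Slc17a6 level of the shallower oligodendrocytes, 10.5 (5.90 to 17.4) and 17.4 (12.5 to 23.6). The whole Cnr1 gate overlapped with that level in both libraries, and its GAD-negative part in the WT-labelled one only. The part of free RNA in these ratios was not tested.

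For Slc17a7 the gates of Cnr1 over all neurons, 60.5 (57.8 to 63.2) against 98.1 (93.9 to 103), and of Drd1 among GAD-positive neurons, 18.5 (15.6 to 21.7) against 32.2 (28.1 to 36.7), met the same rule. In the second of these 1.32% of the WT-labelled and 3.43% of the KO-labelled nuclei were excitatory-like. For Slc17a8 there were 8 sets, from the gates of Drd2, Adarb2, Meis2, Foxp2 and Cck, all lower in the KO-labelled library. Without the cholinergic-like cluster the interval of the log2 ratio spanned 0 in each of the 8, on 3 to 13 UMIs in the KO-labelled library, while the ratio itself stayed negative in all 8 (-1.56 to -0.30). In the Adarb2 gate, for instance, the level over all neurons was 4.96 (4.18 to 5.86) and 2.73 (2.03 to 3.59), and 0.914 (0.591 to 1.35) and 0.491 (0.225 to 0.933) without that cluster. The log2 ratio was -0.86 with the cluster and -0.89 (-2.18 to 0.25) without it. These counts thus do not show whether Slc17a8 differed outside the cholinergic-like cluster.

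Across 18 neuronal clusters, 11748 genes were compared with each transporter by the correlation of their log2 levels, as a description over clusters that share a library. Slc17a7 was followed most closely by Neurod2 (Pearson r of 0.94 in both libraries), Dtl (0.94 and 0.95), Serinc2 (0.92 and 0.95), Tbr1 (0.91 and 0.94) and Sh3gl2 (0.90 in both). Neurod2 and Tbr1 encode transcription factors of cortical projection neurons, and both helped to name the excitatory-like clusters. Slc17a8 was followed by Acly (0.89 and 0.93), Slc5a7 (0.87 and 0.96), Mid1 (0.85 and 0.88), Ecel1 (0.86 and 0.85) and Chat (0.85 and 0.87). Slc17a8 was high in the cholinergic-like cluster alone, so these values rest mostly on that cluster, which Chat and Slc5a7 helped to name. Acly makes acetyl-CoA, the substrate of Chat. Slc17a6 had looser partners, Nrn1 (0.80 and 0.79), Tmem215 (0.76 in both), Ddo (0.76 and 0.74), Ptprk (0.78 and 0.72) and Efemp1 (0.72 and 0.77). Nrn1, too, was on a marker list used to name the excitatory-like clusters. Between the transporters r was 0.65 and 0.54 for Slc17a6 with Slc17a7, and negative for Slc17a8 with either (-0.51 to -0.27).

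Few of the other genes that supply and load glutamate were past 1.5-fold between the libraries, at shares near or below those over all genes. A list of 49 such genes covered vesicular transporters of other cargo and relatives of the family, the proton pump, glutamine and glutamate metabolism, and transport at the plasma membrane. In GAD-negative neurons 40 of them had at least 100 UMIs, and 1 was past 1.5-fold upward and 1 downward in the KO-labelled library, beside 5.92% of all 12075 genes, with a median log2 ratio of 0.04 beside 0.02. In GAD-positive neurons 42 could be compared, 1 was past 1.5-fold upward and none downward, beside 6.04%, and the median was 0.11 beside 0.04. Over all neurons it was 1 of 43, beside 6.77%. The vesicular transporters and relatives in GAD-positive neurons had a median of 0.54, with 4 of the 4 compared higher in the KO-labelled library (0.17 to 0.67). Of all 14155 genes there, 7999 were higher too. In GAD-negative neurons the median of this group was 0.00 over 3 genes. So few genes are not read as a result about the group.

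Among the genes past 1.5-fold, Slc38a3, a glutamine transporter, stood at 4.31 CPM in WT-labelled and 7.73 in KO-labelled GAD-negative neurons (log2 ratio 0.84, 0.37 to 1.32). Slc7a11, which exchanges cystine for glutamate, stood at 10.1 and 5.61 (-0.85, -1.29 to -0.43). Slc30a3, the zinc transporter of glutamatergic vesicles, stood at 5.39 and 8.55 in GAD-positive neurons (0.67, 0.41 to 0.93), and at 41.4 and 51.8 (0.32, 0.16 to 0.48) in GAD-negative ones. The GAD-positive levels of Slc30a3 were close to those of the shallower oligodendrocytes, 4.92 (1.98 to 10.1) and 8.89 (5.50 to 13.6). The part of free RNA in its GAD-positive ratio was not tested. Slc38a3 and Slc7a11 rested on 68 and 91 UMIs and on 160 and 66.

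In the proton pump group, with 17 of 17 genes compared and none past 1.5-fold, the pump subunit Atp6v0a1 stood at 284 and 275 CPM in GAD-negative neurons (-0.05, -0.11 to 0.02). Atp6v0b, another subunit, stood at 321 and 464 (0.53, 0.48 to 0.59), close under the threshold. In the metabolism group Slc25a12, a mitochondrial carrier of aspartate and glutamate, stood at 136 and 143 (0.07, -0.02 to 0.17). The uptake transporters Slc1a2 and Slc1a1 stood at 430.5 and 402 (-0.10, -0.15 to -0.04) and at 114 and 104 (-0.13, -0.24 to -0.03). Of the relatives, the lysosomal sialic acid transporter Slc17a5 stood at 53.4 and 53.5 (0.00, -0.15 to 0.15). Slc32a1 was at 25.0 and 23.7 in GAD-negative neurons (-0.08, -0.30 to 0.15) and at 67.3 and 94.4 in GAD-positive ones (0.49, 0.41 to 0.56), where it is the transporter in use.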

How the data were processed

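The authors deposited 1 matrix of UMI counts per library, genes by nucleus barcodes, made with Cell Ranger 6.0.0 and mm10 per the submitters' processing notes. How intronic reads and nucleus calls were set is not given in the sources used here. Symbols were matched for 32158 of 32285 genes. Nuclei with under 500 genes or over 5.00% mitochondrial UMIs were left out, and Scrublet (scanpy 1.11.5) called 422 and 222 doublets, which were removed. Leiden clustering (leidenalg 0.10.2, resolution 1.0) used 2000 variable genes without the 3 transporters, 30 components and 15 neighbours, with no integration. Clusters were named from marker scores, and 269 and 440 nuclei stayed unnamed. Counts were summed and given per 1000000 UMIs of the same nuclei. Genes counted as past 1.5-fold in neurons or by GAD count needed at least 100 UMIs over both libraries. Ratios within classes, clusters and gates had no such minimum. The code was tested on simulated data. TMM came from edgeR 4.0.16. Named genes and gates followed a rule on rank and size: list members past 1.5-fold or else the 2 with most UMIs in a group, the 5 genes most like each transporter, the 3 highest and 3 lowest gates, and gates whose intervals lay apart. Some genes that this rule names are not reported here. The transporters and all lists were chosen with earlier results of these data known.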

Additional observations from a re-analysis of the deposited data

How the results depend on the processing

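Neuron ratios were recomputed under planned settings (gene minimum, doublets kept, scaling, thinning, a neuron gate and equal cluster weights) and once without the Sim1 cluster, a choice made after seeing the data. Equal cluster weights gave log2 ratios of 0.38 (Slc17a6), 0.15 (Slc17a7) and -0.25 (Slc17a8). Thinning to 1000 UMIs moved Slc17a7 to 0.39. The other settings kept each ratio within its counting interval and its direction.

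Shares with a UMI depend on depth and on how many UMIs count. At 2 UMIs of the gene, Slc17a6 was in 0.844% and 1.39% of GAD-positive and 11.7% and 17.5% of GAD-negative neurons, and Slc17a7 in 3.26% and 3.37%, and 40.1% and 43.8% (WT-labelled first). Thinned, Slc17a6 was in 0.633% and 0.746%, and 4.93% and 7.85%, and Slc17a7 in 2.13% and 2.72%, and 15.1% and 18.0%. With GAD-positive set at 1 GAD UMI, those shares were 6.07% and 8.87% for Slc17a6 and 15.8% and 18.2% for Slc17a7. Slc17a6 among GAD-negative nuclei with Slc17a7 was 5.77% and 8.54% at 2 UMIs, and 3.01% and 1.40% thinned. At the fold threshold tried below 1.5-fold, 10 of the 40 supply genes compared were past it in GAD-negative neurons. In GAD-positive neurons it was 9 of 42. The share of all genes past that lower threshold is not given here, so these counts are not read as a result about the list. The cause of these moves was not tested beyond what each setting changes.

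In all, 42 values moved by more than their interval (for counts, 1.5 times), 63 did not, and no log2 ratio changed sign. The order of the libraries turned for 2 shares. Slc17a6 among GAD-negative nuclei with Slc17a7 went from 20.3% and 26.0% to the thinned values above, and Slc17a8 in GAD-negative neurons from 0.846% and 0.582% to 0.282% and 0.333% at 2 UMIs and 0.227% and 0.251% thinned. Slc17a8 outside the cholinergic-like cluster rests on 52 and 26 UMIs, too few to read a difference. No paired analysis was possible because there is 1 library per genotype.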
